A study of Homo sapiens with 6 samples.

Results

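The genes described here make cholesterol, sense it, take it up and move it. They are 32 genes named by symbol, out of 54644 gene rows in the table, and a row was taken where its name equalled a member or listed it among several names. By role they were 5 regulators, 8 enzymes of the mevalonate arm, 11 enzymes of the sterol arm, 3 lipoprotein receptors and 5 genes of sterol transport and storage. All 32 were found and all 32 passed the filter on low counts, among 14409 genes tested. For 28 members the row named that gene alone, and 4 members shared a row with a neighbour whose reads could not be separated from theirs. These were CYP51A1 with LRRD1, TM7SF2 with VPS51, NPC2 with MIR4709, and GGPS1 with RPS21P1 and TBCE. Their values below belong to the whole row. Some of the rows that name 1 gene reach past the RefSeq gene, so their values may include reads from outside it. The SREBF1 row starts at chr17:17681473 and the gene at 17811334. The STARD4 row ends at chr5:112017309 and the gene at 111512535. The ACAT2 row spans chr6:159669057-159789749 and the gene 159762045-159779112. The IDI1 row starts at chr10:971146 and the gene at 1039152.

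mRNA was measured in SKBR3 cells, an established HER2-positive breast adenocarcinoma line, 3 libraries in each of 2 groups. The CTTN group carried a stably integrated lentiviral pLVX-CTTN construct, which holds the cDNA of CTTN, the gene of the actin-binding protein cortactin. The Con group carried the empty pLVX vector. Cells of both groups were selected with puromycin, and the submitters call the 3 samples of a group biological replicates without saying whether they were separate transductions or cultures of 1 stable population, so p-values measure the spread between these samples only. The promoter of the construct and the time after selection are not given in the sources used here. The Con libraries below are numbered in the order of their columns, which could not be tied to a replicate number of the labels.

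As background, cholesterol is built from acetyl-CoA. The mevalonate arm makes isoprenoid units and joins them to farnesyl diphosphate, and the sterol arm closes squalene into lanosterol and trims it to cholesterol. SREBP transcription factors, encoded by SREBF1 and SREBF2, are carried by SCAP from the endoplasmic reticulum to the Golgi when membrane sterol is low, and INSIG proteins hold SCAP back when it is high. The target genes of SREBP-2 include most enzymes of both arms and INSIG1 itself, and many of their promoters hold a sterol regulatory element and a CCAAT box bound by NF-Y. In breast cancer cells the pathway supplies membrane for growth, and the lipoprotein receptors bring in cholesterol from outside.

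The promoters of 4 members are shown for the matches to the sequence features of this pathway that were found in them, or were not, beside the values that follow. Each is the 250 bases before the RefSeq start of transcription, on the plus strand of GRCh38.p14, and capitals mark the letters of the sterol regulatory element core TCACNCCAC or of the CCAAT box, on either strand (ATTGG is CCAAT on the other strand). VLDLR had the largest difference between the groups, at chr9:2621537-2621786. INSIG1 is the other called member, at chr7:155297628-155297877. SREBF2 has the only sterol regulatory element core found in the members, at chr22:41832855-41833104. NSDHL holds 5 CCAAT matches, a pair of which overlap and as many as any member window had, at chrX:152830813-152831062.
VLDLR: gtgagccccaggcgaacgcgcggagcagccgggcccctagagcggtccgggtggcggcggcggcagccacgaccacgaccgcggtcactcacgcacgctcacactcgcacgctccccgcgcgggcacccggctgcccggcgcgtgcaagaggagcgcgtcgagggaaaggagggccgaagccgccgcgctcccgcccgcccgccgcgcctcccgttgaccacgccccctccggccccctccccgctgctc
INSIG1: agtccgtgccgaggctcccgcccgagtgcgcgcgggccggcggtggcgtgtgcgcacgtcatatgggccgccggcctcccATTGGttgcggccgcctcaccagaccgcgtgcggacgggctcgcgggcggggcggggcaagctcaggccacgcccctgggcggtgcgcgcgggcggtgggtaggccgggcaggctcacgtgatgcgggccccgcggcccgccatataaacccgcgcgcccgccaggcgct
SREBF2: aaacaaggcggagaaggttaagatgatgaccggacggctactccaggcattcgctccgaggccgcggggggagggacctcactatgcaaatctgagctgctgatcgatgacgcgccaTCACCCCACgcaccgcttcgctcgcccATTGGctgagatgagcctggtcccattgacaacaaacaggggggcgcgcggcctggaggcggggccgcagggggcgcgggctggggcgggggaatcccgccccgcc
NSDHL: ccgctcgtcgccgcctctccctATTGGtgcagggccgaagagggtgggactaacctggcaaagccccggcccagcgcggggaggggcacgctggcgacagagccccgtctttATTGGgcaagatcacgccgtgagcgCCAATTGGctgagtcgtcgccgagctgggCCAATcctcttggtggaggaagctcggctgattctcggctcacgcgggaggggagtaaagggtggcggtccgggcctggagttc
The table of promoter windows, each 250 bases before to 50 bases after a start, held 28 of the 32 members in 37 windows. SQLE, FDFT1, ACAT2 and SCARB1 had no entry. The sterol regulatory element core was found in 1 of these 37 windows (2.70%), against 396 of 35116 windows of all genes (1.13%). CCAAT was found in 21 of the 37 windows (56.8%), from 19 members, against 12155 of all windows (34.6%). Several members have more than 1 window, so windows are not independent, and a match of letters is not a measured binding site. Only exact matches inside these windows were counted, so a window without a match does not show that the gene lacks such a site. The VLDLR window held neither motif.

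CTTN itself was read first, since it checks the labels. It was at 790.0, 1015 and 515 CPM (a gene's estimated fragment counts relative to the library's total, in the usual counts-per-million unit and scaled with edgeR's TMM factors) in CTTN libraries 1, 2 and 3, and at 297, 307 and 309 in the Con libraries. The groups did not overlap, and the log2 fold change was 1.35 (SE 0.22, adjusted p = 0.0248, edgeR's quasi-likelihood test with Benjamini-Hochberg adjustment, as for every adjusted p below unless another tool is named). The call was lost without CTTN 1 or any 1 of the Con libraries (adjusted p of 0.121 to 0.154), at log2 fold changes of 1.33 to 1.36, and it held without CTTN 2 (1.103) or CTTN 3 (1.57). It was also lost with limma on log2(FPKM + 1) and on log2(FPKM + 0.1) (adjusted p = 0.0536 and 0.0578), and it held in 8 of 15 alternatives. Libraries held 34887069 to 41279816 estimated fragments. The 3 CTTN libraries were less alike than the 3 Con libraries, with Pearson correlations of log2 CPM of 0.975 to 0.991 among CTTN and 0.995 to 0.996 among Con. CTTN libraries 1 and 3 stood apart from the other 4 by transcript length: across genes, the Spearman correlation of a library's deviation with length was −0.48 in CTTN 1 and −0.68 in CTTN 3, against 0.44 in CTTN 2 and 0.36 to 0.54 in Con. In CTTN 3 the upper length quartile had a median deviation of −0.43 on the log2 scale and the lower quartile 0.45. A fit with this trend removed from each library, chosen after the data were seen, is given beside the members' results as the length-corrected value. Epithelial markers were high in all 6 libraries (ERBB2, the HER2 gene, at 1644 to 1790.3 FPKM, fragment counts scaled by transcript length and library size), and their summed level was 7253 to 11188 FPKM in CTTN and 7831 to 8157 in Con. Of 8 such markers 0 were called, where 2.43% of all genes tested were called higher in CTTN and 2.03% lower. At an unadjusted p under 0.05, 2 were higher and 0 lower, beside 16.2% and 14% of all genes, and DESeq2 called 1 higher and 0 lower, beside 7.47% and 6.93%. Of 6 fibroblast markers 5 were at most 0.163 FPKM in every library, their summed level was 2.94 to 4.30 FPKM in CTTN and 3.51 to 4.44 in Con, and COL1A1 made up nearly all of it. The 3 endothelial markers summed to 1.55 to 2.17 FPKM in CTTN and 4.12 to 4.62 in Con, where PECAM1 was at most 0.022 FPKM throughout and CDH5 was lower in CTTN (log2 fold change −1.49, adjusted p = 0.00843). Of 5 leukocyte markers, PTPRC and CD3E were at most 0.199 FPKM, and the list's sum of 621 to 859 FPKM in CTTN and 607 to 633 in Con came from a row that CD68 shares with EIF4A1.

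Of the 32 members, 2 fell in CTTN-overexpressing cells at an adjusted p under 0.05, VLDLR and INSIG1, and 0 rose. In all genes tested 293 were called lower (2.03%) and 350 higher (2.43%). At an unadjusted p under 0.05 the members numbered 6 lower and 2 higher, where all genes gave 2012 lower (14%) and 2340 higher (16.2%). DESeq2 called 3 members lower and 1 higher, against 998 (6.93%) and 1076 (7.47%) of all genes. With a fold of at least 1.5 required as well, 1 member was called lower, VLDLR, against 212 of all genes (1.47%). The 3 CTTN values lay below all 3 Con values in 9 members and above them in 3, where the whole table gave 2754 genes below (19.1%) and 2789 above (19.4%). Estimates were positive in 19 members and negative in 13. Their median log2 fold change was 0.03, beside 0.01 over all genes tested. Which library was left out mattered: without CTTN 2, 8 members were called higher and 8 lower, where the whole table gave 3366 higher (22.9%) and 3559 lower (24.2%), and without CTTN 1 or any 1 of the Con libraries VLDLR was the only member called. With length-corrected values 5 members were higher and 4 lower, where the whole table gave 1434 genes higher (9.95%) and 1222 lower (8.48%), and the medians were 0.02 and 0.00.

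**Figure D1:**
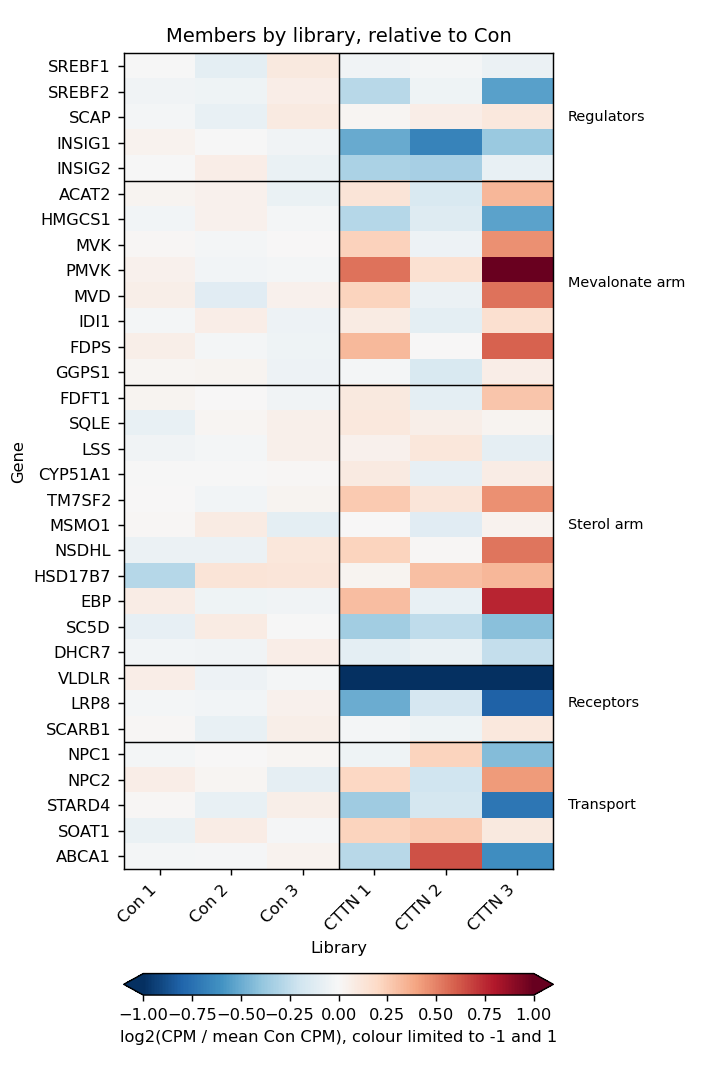
Each row is a member and each column a library, coloured by log2 of its CPM over the mean Con CPM, with colours limited to −1 and 1 and members grouped by role. VLDLR is far below Con in all 3 CTTN libraries. The median SD of log2 CPM over the members is 0.16 in CTTN and 0.06 in Con, and CTTN 3 holds the highest CTTN value in 19 members and the lowest in 12.

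The largest difference among the lipoprotein receptors was that of VLDLR, which binds triglyceride-rich lipoproteins and the neuronal ligand reelin. It was at 3.97, 4.30 and 4.51 CPM in CTTN and 12.4, 11.4 and 11.7 CPM in Con. The CTTN values lay close together and all were far below Con. The log2 fold change was −1.47 (SE 0.10, adjusted p = 0.00301), a level 2.77-fold lower in CTTN, and the length-corrected value was −1.25 (adjusted p = 0.00102). The gene was called in 15 of 15 alternatives, with log2 fold changes from −1.53 to −0.999. In these bulk samples, fewer cells with the transcript and less transcript per cell cannot be told apart. The table's row for it spans chr9:2422702-2660053, starting upstream of the RefSeq gene at 2621787, and whether counting used strand is not given in the sources used here, so reads of an antisense neighbour would not be told apart. Of its 4 start-site groups 1 reached a mean of 1 FPKM, with 73.0% to 85.3% of the gene's FPKM in each library.

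LRP8, a receptor of the same family that also binds reelin, was at 165, 206 and 132 CPM in CTTN and 229, 228 and 239.5 CPM in Con. The groups did not overlap, but the CTTN libraries spread widely, with CTTN 3 lowest and CTTN 2 nearest to Con. Its log2 fold change was −0.46 (SE 0.15, adjusted p = 0.113), and the length-corrected value was −0.19 (adjusted p = 0.0255). Without CTTN 2 the estimate with no length correction was −0.64 (adjusted p = 0.00238). Over all fits with 1 library left out it ran from −0.64 to −0.32, with adjusted p up to 0.308. SCARB1, the scavenger receptor that takes cholesteryl ester from high-density lipoprotein, was at 244, 239.7 and 265 CPM in CTTN and 249, 235 and 257 CPM in Con. Those groups overlapped, with a log2 fold change of 0.02 (SE 0.08, adjusted p = 0.857) and a length-corrected value of 0.04. Per transcript length, SCARB1 stood at 99.0 ± 4.13 FPKM in Con, LRP8 at 46.7 ± 1.14 and VLDLR at 2.82 ± 0.06 (SD, n = 3), so the receptor that was called is the scarcest of the 3.

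**Figure D2:**
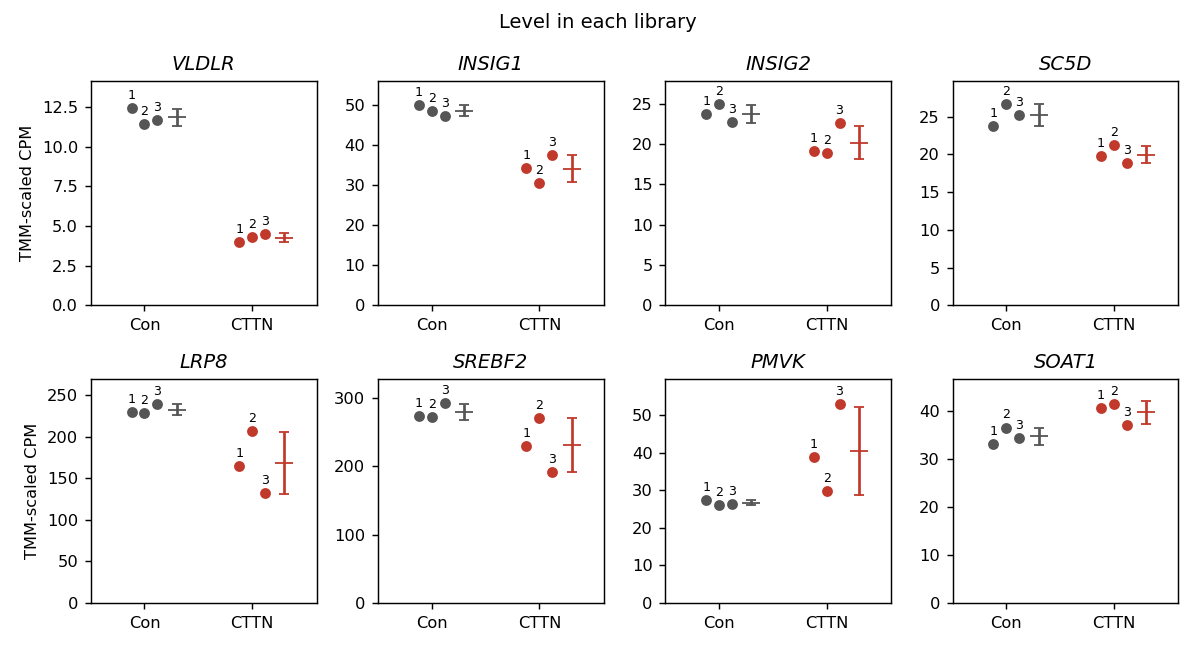
TMM-scaled CPM of 8 members in each library, from a zero baseline, with the library number above each point and the group mean ± SD beside it. VLDLR, INSIG1 and SC5D separate with tight CTTN points, while LRP8, SREBF2 and PMVK separate with CTTN 3 farthest from Con and CTTN 2 nearest.

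Among the regulators 1 of 5 fell and 0 rose, where 2.03% of all genes were called lower and 2.43% higher. At an unadjusted p under 0.05, 1 was lower and 0 higher, beside 14% and 16.2% of all genes. DESeq2 called 1 lower and 0 higher, beside 6.93% and 7.47%. INSIG1, whose protein retains SCAP in the endoplasmic reticulum and is itself a target of SREBP, was at 34.3, 30.5 and 37.4 CPM in CTTN and 49.8, 48.5 and 47.2 CPM in Con. The groups did not overlap, and CTTN 2 was the lowest library. The log2 fold change was −0.50 (SE 0.10, adjusted p = 0.0448), which is 1.42-fold lower, and −0.47 with length correction (adjusted p = 0.0122). The adjusted p lay close to the threshold, and the gene was called in 9 of 15 alternatives. The call was lost with upper-quartile factors (adjusted p = 0.0542) and without CTTN 1, Con 1, Con 2 or Con 3 (adjusted p of 0.168 to 0.202). It was also lost with the library numbers as a replicate block, given below. Log2 fold changes in these fits ran from −0.53 to −0.48. The leading start-site group of INSIG1, with 76.6% to 99.2% of its FPKM, was at 13.6, 12.6 and 15.2 FPKM in CTTN and 20.5, 19.0 and 19.1 FPKM in Con.

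INSIG2, the second retention protein, was at 19.1, 18.8 and 22.6 CPM in CTTN and 23.6, 24.9 and 22.7 CPM in Con. CTTN 3 lay just below the lowest Con library, and the log2 fold change of −0.23 (SE 0.11, adjusted p = 0.184) did not pass the test. Its length-corrected value was −0.24. SREBF2, which encodes the factor that drives cholesterol genes, was at 230.3, 270.5 and 192 CPM in CTTN and 273, 272 and 293 CPM in Con. CTTN 2 was level with Con and CTTN 3 far below it. The log2 fold change was −0.27 (SE 0.13, adjusted p = 0.189), and the length-corrected value was 0.02 (adjusted p = 0.832), so its sign turned with the correction. SREBF1, which encodes SREBP-1 and is better known for fatty acid genes, was at 818, 826 and 804 CPM in CTTN and 836, 782 and 898 CPM in Con, with a log2 fold change of −0.03 (SE 0.08, adjusted p = 0.797) and a length-corrected value of −0.01. SCAP, the sterol-sensing escort, was at 88.2, 91.5 and 93.7 CPM in CTTN and 85.8, 82.9 and 93.0 CPM in Con, with a log2 fold change of 0.07 (SE 0.08, adjusted p = 0.402) and a length-corrected value of 0.23. The groups of both genes overlapped.

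In the mevalonate arm, 0 of 8 members passed the test in either direction, where 2.03% of all genes were called lower and 2.43% higher. At an unadjusted p under 0.05, 1 was lower and 1 higher, beside 14% and 16.2% of all genes. DESeq2 called 0 lower and 1 higher, beside 6.93% and 7.47%. Log2 fold changes ran from −0.30 to 0.61. HMGCS1, the cytosolic HMG-CoA synthase that feeds the pathway, had the lowest value, at 81.7, 91.1 and 68.8 CPM in CTTN against 98.1, 103 and 98.7 CPM in Con. Every CTTN library lay below Con, at a log2 fold change of −0.30 (SE 0.11, adjusted p = 0.132) and a length-corrected value of −0.17 (adjusted p = 0.0565). PMVK, phosphomevalonate kinase, had the highest, at 38.8, 29.7 and 52.9 CPM in CTTN against 27.5, 26.1 and 26.3 CPM in Con. Every CTTN library lay above Con, CTTN 2 by the least and CTTN 3 by the most. Its log2 fold change was 0.61 (SE 0.20, adjusted p = 0.113), the length-corrected value was 0.32 (adjusted p = 0.0366), and DESeq2 gave 0.61 (adjusted p = 0.0406).

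The steps on either side of PMVK gave smaller estimates. MVK, mevalonate kinase, was at 45.8, 37.6 and 53.5 CPM in CTTN and 39.2, 38.4 and 39.1 CPM in Con, with a log2 fold change of 0.24 (adjusted p = 0.249) and a length-corrected value of 0.13. MVD, the decarboxylase after PMVK, was at 33.9, 27.8 and 42.2 CPM in CTTN and 30.2, 26.9 and 30.0 CPM in Con, with a log2 fold change of 0.26 (adjusted p = 0.270) and a length-corrected value of 0.08. FDPS, which makes farnesyl diphosphate, was at 186, 149 and 224 CPM in CTTN and 154, 147 and 145 CPM in Con, with a log2 fold change of 0.34 (adjusted p = 0.176) and a length-corrected value of 0.03. In all 3 genes CTTN 3 was highest and CTTN 2 lowest, within the Con range or just below it. FDPS has near-identical copies elsewhere in the genome, so its counts are uncertain where the authors' counting could split reads.

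The remaining members of this arm differed little. ACAT2, the cytosolic thiolase at the entry step, had a log2 fold change of 0.12 (adjusted p = 0.529, length-corrected 0.17), with 42.7 to 59.8 CPM in CTTN and 45.4 to 49.1 CPM in Con. It overlaps the neighbouring gene TCP1 at its end. IDI1, the isopentenyl diphosphate isomerase, gave 0.06 (adjusted p = 0.667, length-corrected 0.01), with 117 to 139.9 CPM in CTTN and 121 to 131 CPM in Con. The row of GGPS1, which makes geranylgeranyl diphosphate, gave −0.03 (adjusted p = 0.847, length-corrected −0.15), with 69.1 to 80.4 CPM and 74.2 to 78.2 CPM.

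In the sterol arm, 0 of 11 members passed the test, where 2.03% of all genes were called lower and 2.43% higher. At an unadjusted p under 0.05, 1 was lower and 1 higher, beside 14% and 16.2% of all genes. DESeq2 called 1 lower and 0 higher, beside 6.93% and 7.47%. Log2 fold changes ran from −0.33 to 0.38. SC5D, the sterol C5-desaturase, came nearest, at 19.8, 21.2 and 18.9 CPM in CTTN and 23.8, 26.6 and 25.2 CPM in Con. The CTTN libraries were close together and all lay below Con, with a log2 fold change of −0.33 (SE 0.09, adjusted p = 0.0786). The length-corrected value was −0.36 (adjusted p = 0.0147), and DESeq2 gave −0.33 (adjusted p = 0.0220). DHCR7, the reductase of a last step, was also below Con in every CTTN library, at 200.5, 204 and 182 CPM against 210.3, 209 and 224 CPM. That difference was small, at a log2 fold change of −0.13 (SE 0.08, adjusted p = 0.289), and the length-corrected value was −0.13.

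EBP, the sterol isomerase, and the row of TM7SF2, a sterol C14-reductase, lay at the upper end. EBP was at 95.6, 73.4 and 131 CPM in CTTN and 81.4, 74.8 and 75.5 CPM in Con, so CTTN 2 was below every Con library and CTTN 3 far above. Its log2 fold change was 0.38 (SE 0.20, adjusted p = 0.223) and the length-corrected value 0.01. The TM7SF2 row was at 132, 119.6 and 151.3 CPM in CTTN and 110.2, 108 and 112 CPM in Con, all CTTN libraries above Con, with a log2 fold change of 0.30 (SE 0.10, adjusted p = 0.125) and a length-corrected value of 0.20 (adjusted p = 0.0448). The start-site group with the most FPKM among those that name TM7SF2 was at 13.17, 11.997 and 14.06 FPKM in CTTN and 10.04, 10.85 and 10.08 FPKM in Con, while the whole row stood at 73.0 FPKM in Con, so most of the row lay outside that group. NSDHL, of the C4-demethylation complex, was at 31.4, 27.1 and 38.8 CPM in CTTN and 25.7, 25.8 and 29.0 CPM in Con, with a log2 fold change of 0.28 (adjusted p = 0.216) and a length-corrected value of 0.14.

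SQLE, squalene epoxidase and a rate-setting oxygenase of the pathway, was at 239, 230.3 and 225 CPM in CTTN and 210.0, 225 and 229 CPM in Con, with a log2 fold change of 0.07 (SE 0.07, adjusted p = 0.499) and a length-corrected value of 0.11. LSS, which closes the ring, was at 77.5, 81.6 and 70.6 CPM in CTTN and 73.4, 74.4 and 78.0 CPM in Con, with a log2 fold change of 0.03 (adjusted p = 0.797) and a length-corrected value of 0.24 (adjusted p = 0.0314). FDFT1, squalene synthase, gave 0.11 (adjusted p = 0.502, length-corrected −0.02), the row of CYP51A1, the lanosterol demethylase, gave 0.04 (adjusted p = 0.758, length-corrected 0.12) and MSMO1, the methylsterol oxidase, gave −0.02 (adjusted p = 0.910, length-corrected −0.08). HSD17B7, the ketosteroid reductase of C4-demethylation, was low, at 4.28 to 5.26 CPM in CTTN and 3.43 to 4.59 CPM in Con, with a log2 fold change of 0.23 (adjusted p = 0.319) that turned to −0.01 with length correction, and it too has a near-identical copy that makes its counts uncertain.

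**Figure D3:**
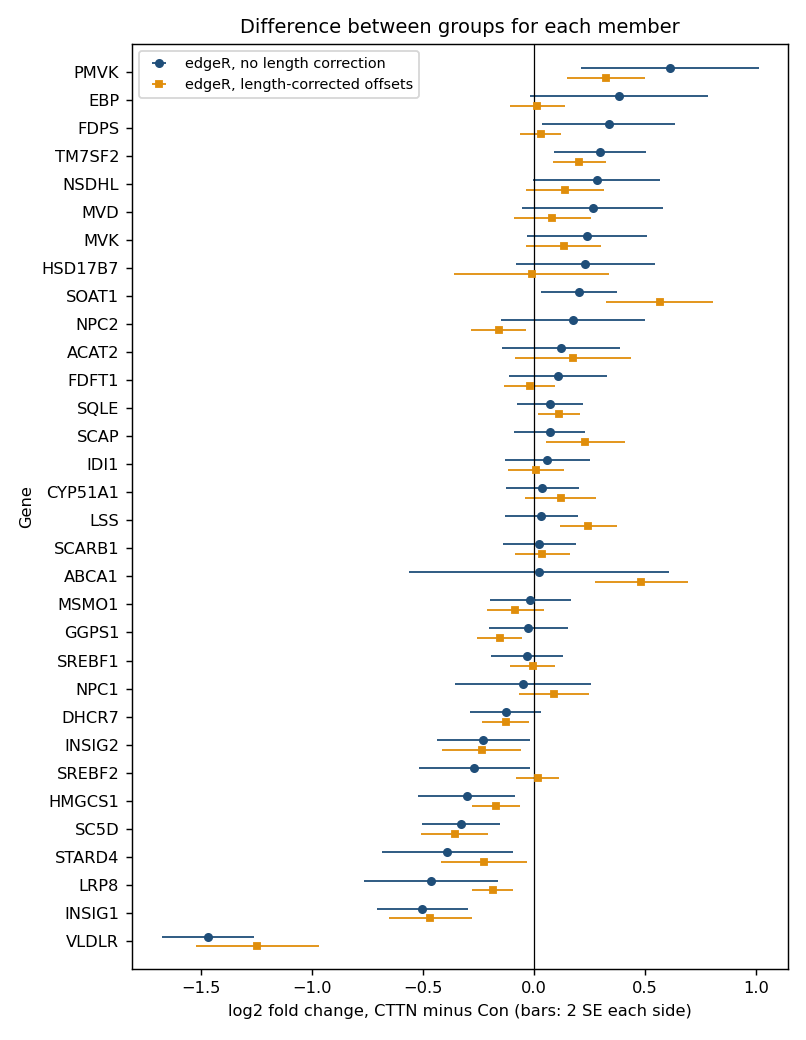
Log2 fold change, CTTN minus Con, of the 32 members in order of size, without (circles) and with (squares) length correction, with bars of 2 SE on each side. VLDLR lies alone at −1.47, and the upper estimates of EBP and FDPS move to 0.01 and 0.03 with the correction while SOAT1 and ABCA1 move to 0.56 and 0.48.

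Among the 5 genes of transport and storage 0 passed the test, where 2.03% of all genes were called lower and 2.43% higher. At an unadjusted p under 0.05, 1 was lower and 0 higher, beside 14% and 16.2% of all genes. DESeq2 called 0 lower and 0 higher, beside 6.93% and 7.47%. STARD4, a soluble sterol carrier, was at 6.08, 6.89 and 4.72 CPM in CTTN and 7.84, 7.38 and 8.10 CPM in Con, every CTTN library below Con, with a log2 fold change of −0.39 (SE 0.15, adjusted p = 0.140) and a length-corrected value of −0.23. SOAT1, which esterifies cholesterol for storage, was at 40.5, 41.4 and 37.0 CPM in CTTN and 33.0, 36.5 and 34.3 CPM in Con, every CTTN library above Con. Its log2 fold change was 0.20 (SE 0.09, adjusted p = 0.166) and the length-corrected value 0.56 (adjusted p = 0.0150).

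ABCA1, the pump that loads cholesterol onto lipid-poor apolipoprotein, spread most of all members among the CTTN libraries relative to its level. It was at 6.81, 12.8 and 5.38 CPM in CTTN against 8.12, 8.17 and 8.47 CPM in Con. CTTN 2 was above and the other CTTN libraries below every Con library. The log2 fold change was 0.02 (SE 0.29, adjusted p = 0.961), without CTTN 2 it was −0.43 (adjusted p = 0.0225), and the length-corrected value was 0.48 (adjusted p = 0.0166). Its direction thus turned with the library left out, and its size changed with the correction. Its transcript, at 10183 bases, was the longest among the members. NPC1, the lysosomal membrane protein that exports cholesterol, was at 114, 137 and 86.8 CPM in CTTN and 115, 117 and 118 CPM in Con, with a log2 fold change of −0.05 (adjusted p = 0.825) that turned to 0.09 with length correction. The row of its soluble partner NPC2 was at 58.8, 44.2 and 68.4 CPM in CTTN and 53.2, 51.4 and 47.9 CPM in Con, with a log2 fold change of 0.18 (adjusted p = 0.450) that turned to −0.16 with length correction. In the CTTN libraries the order of these partners was opposite, NPC1 highest and NPC2 lowest in CTTN 2.

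Transcript length moved with the estimates of the members. Across the 32 members the Spearman correlation of length with log2 fold change was −0.63, as a description over genes that share the same 6 libraries, and −0.55 over all genes tested. After length correction the values were 0.08 and 0.04. The 16 shorter members, of 963 to 2498 bases, had a median log2 fold change of 0.20, and 11 of them were positive. The 16 longer members, of 2576 to 10183 bases, had a median of −0.0045, with 8 positive. Over all genes in the same length ranges the medians were 0.16 for 6219 genes and −0.18 for 6267 genes. Short genes such as EBP (963 bases), FDPS (1156 bases) and PMVK (1280 bases) were at the upper end of the estimates, and long ones such as LRP8 (4998 bases) and SREBF2 (4971 bases) at the lower end, with SOAT1 (5774 bases) and ABCA1 off this trend. The part that length-related library differences have in these values was not tested beyond the correction.

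Per transcript length, the members covered a wide range in vector-control cells. SREBF1 led at 362 ± 14.5 FPKM (SD, n = 3), followed by FDPS at 127 ± 6.2, DHCR7 at 107 ± 1.96, EBP at 102 ± 4.23, SCARB1 at 99.0 ± 4.13 and SQLE at 91.4 ± 3.21. DHCR7 and EBP, and EBP and SCARB1, differed by less than the sum of their SDs. SREBF1, whose row reaches past the RefSeq gene, stood far above SREBF2, which was at 58.7 ± 1.82 FPKM. INSIG1 was at 24.8 ± 0.10 and INSIG2 at 12.5 ± 1.16 FPKM. The lowest were HSD17B7 at 3.68 ± 0.61, VLDLR at 2.82 ± 0.06, STARD4 at 2.61 ± 0.21 and ABCA1 at 0.791 ± 0.050 FPKM. VLDLR and STARD4 differed by less than the sum of their SDs. The total FPKM of CTTN 3 was 852256 against 603634 to 704018 in the other libraries, so FPKM values set side by side between the groups, as for the markers and start-site groups, carry that difference.

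**Figure D4:**
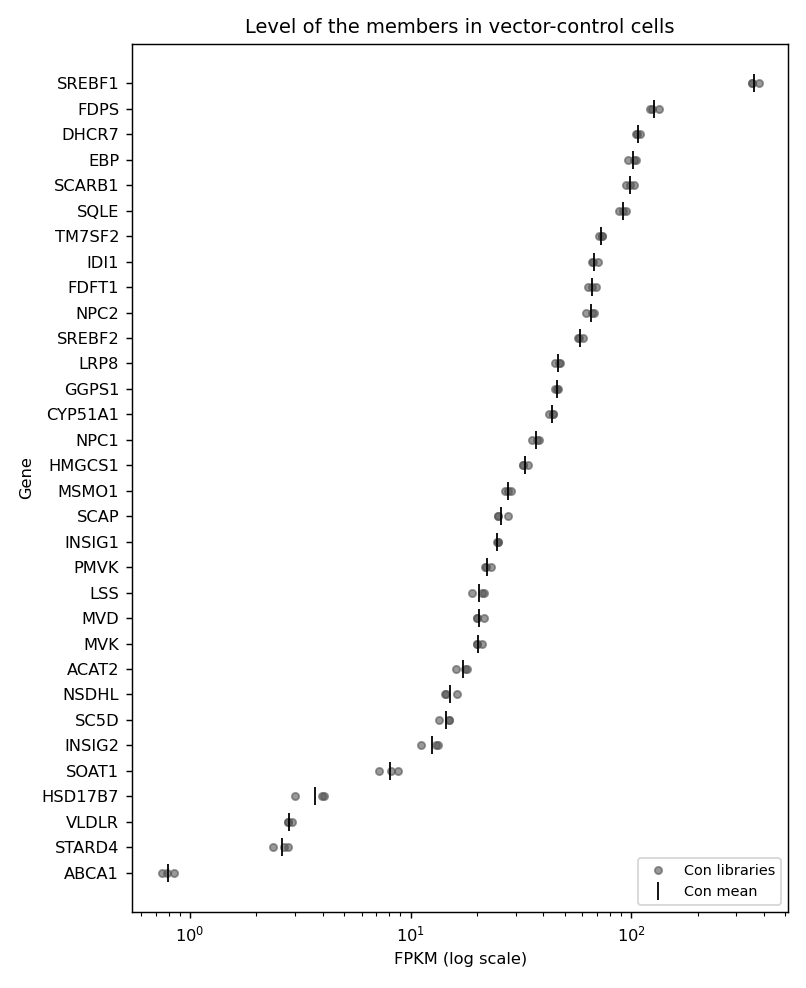
FPKM (log axis) of the 32 members in the 3 Con libraries (points) with their mean (bar), in order of level. SREBF1 lies alone at the top at 362 FPKM and ABCA1 alone at the bottom at 0.791 FPKM, and the 3 libraries lie close together for nearly every gene.

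Genes around the pathway were read from 5 lists, whose counts stand against shares over all genes of 2.03% lower and 2.43% higher at an adjusted p under 0.05, of 14% and 16.2% at an unadjusted p under 0.05, and of 6.93% and 7.47% by DESeq2. Of 13 genes that control SREBP 0 were called, with 4 lower and 0 higher at an unadjusted p under 0.05, and 1 lower and 0 higher by DESeq2, and the median log2 fold change was −0.15, or −0.03 with length correction. Of 16 further genes of sterol synthesis and isoprenoid use 0 were called, with 3 lower and 0 higher at an unadjusted p under 0.05 and 2 lower and 0 higher by DESeq2, and a median of 0.00, or −0.07 with length correction. Of 21 genes of sterol transport, storage and the LXR axis 0 were called, with 3 lower and 3 higher at an unadjusted p under 0.05 and 1 lower and 0 higher by DESeq2, and a median of 0.02, also 0.02 with length correction.

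Of 12 other lipoprotein receptors and adaptors, 2 fell and 1 rose, where 2.03% of all genes fell and 2.43% rose. Against the unadjusted and DESeq2 shares above, the list had 5 lower and 2 higher at an unadjusted p under 0.05 and 4 lower and 2 higher by DESeq2, and a median of −0.21, or −0.05 with length correction. CD36, a scavenger receptor for oxidised lipoprotein and fatty acids, rose, at 6.87, 7.37 and 7.90 CPM in CTTN against 2.64, 2.08 and 2.21 CPM in Con, a log2 fold change of 1.68 (SE 0.14, adjusted p = 0.00413). OLR1, another receptor for oxidised lipoprotein, fell, at 29.3, 29.3 and 25.5 CPM against 46.5, 44.7 and 44.8 CPM, a log2 fold change of −0.69 (SE 0.09, adjusted p = 0.0116). The row of DAB2, an adaptor that brings such receptors into coated pits, which also names C9, fell as well, at 4.05, 5.07 and 3.25 CPM against 7.42, 8.31 and 8.31 CPM, a log2 fold change of −0.95 (SE 0.17, adjusted p = 0.0290). All 3 kept their direction with length correction, at 1.64, −0.70 and −0.82. The calls of OLR1 and DAB2 were lost without CTTN 1 or any 1 of the Con libraries (adjusted p of 0.0814 to 0.0958 and of 0.117 to 0.174), and that of CD36 without Con 2 or Con 3 (adjusted p = 0.0535 and 0.0520). DAB2 was also not called with either limma fit (adjusted p = 0.166 and 0.182) and held in 8 of 15 alternatives.

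Of 15 fatty acid targets of SREBP-1, 1 fell and 0 rose, again beside 2.03% and 2.43% of all genes. Against the unadjusted and DESeq2 shares above, the list had 6 lower and 1 higher at an unadjusted p under 0.05 and 3 lower and 1 higher by DESeq2, and a median of −0.24, or −0.10 with length correction. The gene called was THRSP, a lipogenic nuclear protein, at 2.08, 2.48 and 2.97 CPM in CTTN against 6.21, 5.71 and 5.39 CPM in Con, a log2 fold change of −1.19 (SE 0.16, adjusted p = 0.0142). Its call was lost without CTTN 1 or any 1 of the Con libraries (adjusted p of 0.0783 to 0.0962). SCD, the stearoyl-CoA desaturase, was at 666, 847 and 536 CPM against 958, 1002 and 1011 CPM, a log2 fold change of −0.53 (SE 0.16, adjusted p = 0.0936) and −0.23 with length correction (adjusted p = 0.0050). FASN, the fatty acid synthase, was at 3001, 3919 and 2298 CPM against 4091, 4018 and 4561 CPM, a log2 fold change of −0.45 (SE 0.18, adjusted p = 0.153) and −0.13 with length correction. In both, CTTN 3 was lowest and CTTN 2 highest of the CTTN libraries, the order that SREBF2 and LRP8 also had. The row of FADS1, which also names MIR1908, went the other way at a low level. It was at 1.32, 1.28 and 0.99 CPM in CTTN against 0.65, 0.74 and 0.37 CPM in Con. Its log2 fold change was 1.03 (SE 0.29, adjusted p = 0.0874), and 1.09 with length correction (adjusted p = 0.0307).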

How the data were processed

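RNA-seq was performed on poly(A)-selected, stranded libraries of SKBR3 cells, 3 with pLVX-CTTN (CTTN) and 3 with empty pLVX (Con). One label mentions tumors, while the series' design and the study's methods name cultured cells. Reads were trimmed (Trimmomatic per the submitters' processing notes, Cutadapt in the methods), aligned with STAR and quantified with Cufflinks. The processing notes name GRCh38 and bcl2fastq 2.20.0, the methods hg19. The coordinates of the rows match GRCh38, which is used here. The deposited estimated counts are Cuffnorm values that the authors' pipeline divided by a library scale. The deposited FPKM are the authors' values per transcript length and library scale.

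Estimated counts were multiplied by the library scale of the deposited sample table, rounded, filtered (filterByExpr) and tested with edgeR 4.0.16 (TMM, quasi-likelihood F test, group only, all 6 libraries) in R 4.3.3. P-values were adjusted by Benjamini-Hochberg over 14409 genes, and a call is an adjusted p under 0.05. SE is the log2 fold change divided by the square root of F. FPKM served for levels in Con, start-site groups, markers and the limma alternatives. Exact permutation of 3 against 3 cannot go below p = 0.1 and was not used. Alternatives were other size factors, DESeq2 1.42.0, no filter, counts as deposited, limma 3.58.1 on log2(FPKM + 1) and log2(FPKM + 0.1), each library left out in turn, only columns that a description names (the same fit as without the first Con library, counted once, which leaves 15 alternatives), and, added after the data were seen, a replicate block and a correction in which the smooth of each library's log2 deviation on log2 transcript length is an offset. Scripts were tested on simulated data.

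GEO descriptions and the deposited sample table number the Con columns differently, so these are replicates without a number of their own. All 32 members, CTTN, and from the related lists each gene called and up to 10 per list by size could be named. The members and lists were chosen with earlier results of these data known. Intervals in the plot of differences are 2 SE. Motifs and promoters come from RefSeq windows of GRCh38.p14, and 32 members were found in the RefSeq gene table by symbol.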

Additional observations from a re-analysis of the deposited data

How the results depend on the processing

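VLDLR kept its direction and its call under all 15 alternatives. Of the log2 fold changes of the 32 members, 262 of the values with all libraries kept direction and side of the threshold, 9 passed it, 2 no longer did (both INSIG1) and 15 changed sign; with a library left out these were 164, 13, 4 (all INSIG1) and 11. The whole table gave 350 genes higher and 293 lower, and 1076 and 998 with DESeq2, 539 higher without a filter, 117 and 82 with limma on log2(FPKM + 1), 124 and 91 on log2(FPKM + 0.1), 1434 and 1222 with length correction, and 16 and 13 with only columns that a description names. With one library left out the range was 10 to 3366 higher and 5 to 3559 lower, the most without CTTN 2 and the fewest, 10 and 5, without Con 2. Without CTTN 1 it was 20 and 12, without CTTN 3 668 and 584, without Con 1 16 and 13, and without Con 3 10 and 6.

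Members called were 0 higher and 2 lower. Higher members numbered 1 with DESeq2, 5 with length correction and 0 to 8 with a library left out. Lower members numbered 1 with upper-quartile factors, 1 with only columns that a description names, 4 with length correction and 1 to 8 with a library left out, 8 and 8 being the counts without CTTN 2 and 1 the count of lower members without CTTN 1, Con 1, Con 2 or Con 3. Genes of the related lists numbered 1 higher and 3 lower. They were 3 higher and 11 lower with DESeq2, 6 and 11 with length correction, 0 lower with only columns that a description names, and 0 to 11 higher and 0 to 30 lower with a library left out. The cause of these shifts was not tested.

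With the replicate block, using the numbers of the deposited sample table, 51 genes were higher and 54 lower, members 0 higher and 1 lower, and related-list genes 1 higher and 0 lower. CTTN was at 1.30 (edgeR adjusted p = 0.0588), INSIG1 at −0.51 (edgeR adjusted p = 0.112), VLDLR at −1.47 (adjusted p = 0.0348) and ABCA1 turned to −0.065. Same-numbered libraries correlated in their deviations from the group means at 0.02, 0.08 and −0.19, and not every library correlated best with its own number. Other pairs ran from −0.26 (CTTN 2 with Con 1) to 0.24 (CTTN 3 with Con 1). Deviations from a mean of 3 libraries depend on one another, and the Con columns have no replicate number. These values therefore cannot decide whether a shared number marks a shared batch.

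Signs turned as follows. With length correction FDFT1 was −0.020, HSD17B7 −0.011, SREBF2 0.017, NPC1 0.090 and NPC2 −0.16. With limma on log2(FPKM + 1) and on log2(FPKM + 0.1), IDI1 was −0.018 and −0.018, SREBF1 0.018 and 0.019, NPC1 0.070 and 0.071, and ABCA1 −0.027 and −0.092. With upper-quartile factors MSMO1 was 0.0019. With one library left out, LSS ranged from −0.018 to 0.084, IDI1 from −0.00012 to 0.13, MSMO1 from −0.068 to 0.025, GGPS1 from −0.082 to 0.027, ACAT2 from −0.0031 to 0.24, SREBF1 from −0.082 to 0.012, NPC1 from −0.22 to 0.10, ABCA1 from −0.43 to 0.26 and SCARB1 from −0.026 to 0.048. Counting error weighs most in the members of lowest CPM, HSD17B7, STARD4, VLDLR and ABCA1. With 3 libraries a group the spread among the CTTN libraries also limits the values, that of ABCA1 included (SD of 3.94 CPM in CTTN and 0.186 in Con).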

Other observations

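Reads of the members were split among start-site groups, the transcripts that share a start, and the split differed among libraries of 1 group. At a mean of at least 1 FPKM, 23 members had more than 1 group, 8 had 1 and ABCA1 had none, and in 15 members the leading group held at least 80% of the FPKM in every library. For CYP51A1, the lanosterol demethylase, the leading group held 71.2%, 95.4% and 36.9% of the FPKM in CTTN 1, 2 and 3 and 87.4%, 91.1% and 94.2% in Con, and a group of shorter transcripts (2010 against 3210 bases) held 27.9%, 2.5% and 62.2% in CTTN and 9.0%, 5.7% and 1.2% in Con. SCAP, the escort of SREBP, gave 35.96%, 47.1% and 3.4% for its leading group in CTTN and 46.9%, 50.5% and 45.6% in Con. SREBF1 gave 47.1%, 48.7% and 30.6% for its longest main group in CTTN and 49.4% to 49.8% in Con, and SCARB1 87.1%, 97.0% and 73.2% in CTTN and 94.8% to 96.0% in Con. HSD17B7, at a low level, gave 60.2%, 91.3% and 32.2% in CTTN and 53.2% to 72.3% in Con, with CTTN 1 inside the Con range and CTTN 2 above it. In the other 4 genes CTTN 2 lay nearest to Con or within it and CTTN 3 farthest, the same order in which the libraries differed by transcript length, and the part of that difference in these shares was not tested. The genes were chosen after their values were seen, no test was run on the shares, and they are estimates that depend on how reads were assigned to overlapping transcripts.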
